A study of Mus musculus with 69 samples.

Results

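The aminoacyl-tRNA synthetases and the amino acid synthesis and stress genes tied to the transcription factor ATF4 were followed in mouse kidney tubules after removal of the other kidney. The members were chosen by gene symbol: every symbol made of a capital letter and "ars", with or without 1 or 2 after it, Farsa and Farsb, and a named set of ATF4 genes. This gave 57 of the 52404 gene rows that the 4 deposited tables share. Of these, 36 were synthetases, 19 grouped here as cytosolic and 17, whose symbols end in 2, as mitochondrial. The other 21 rows held 20 ATF4 gene symbols, because Ddit3 had 2 rows.

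All animals were male wild-type C57BL/6 mice from Taconic, aged 7 weeks. Surgery was either sham or unilateral nephrectomy (UNx), in which 1 kidney is excised. After 24 h or 72 h, tubules were microdissected: PT-S1, the opening stretch of the proximal tubule, and CCD, the part of the collecting duct that lies in the cortex. For PT-S1 at 24 h, 3 sham animals gave 8 libraries and 4 UNx animals gave 9. For PT-S1 at 72 h, the 5 animals of each group gave 12. For CCD at 24 h, 4 sham animals gave 8 libraries and 3 UNx animals gave 7. For CCD at 72 h, the 4 sham animals gave 7 and the 4 UNx animals gave 6. Values are TPM, transcript abundances corrected for gene length and scaled to a fixed sum in every library. They keep no depth, so the depth is unknown. Each animal counted as 1 replicate, numbered as in the sample titles, and values listed for a group are its animals in order of size.

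A tRNA synthetase joins an amino acid to the tRNA that carries it to the ribosome, and separate enzymes do this in the cytosol and in mitochondria, although Gars and Kars are known to serve both. When an amino acid runs short or proteins misfold, kinases phosphorylate the initiation factor eIF2, general translation slows, and the Atf4 mRNA is translated more. The ATF4 protein then drives genes that make or import amino acids, charge tRNAs and, under lasting stress, promote cell death. Since ATF4 is controlled mainly in translation, the level of its mRNA is not the level of its activity. The proximal tubule is known as a site where serine is made and released to the blood.

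ATF4 pairs with C/EBP proteins on a short DNA element, written here as TGATGNAA and searched on both strands. Promoter windows from RefSeq on GRCm38.p6, from 250 bases before to 50 after a gene's start, were found for 26 of the 36 synthetases and 19 of the 20 ATF4 symbols. At least 1 match was held by 5 synthetases and 5 ATF4 genes, against 4.51% of the 27025 genes with a window. The stretches below run along the gene's strand and are shown because they come from members with a match, 9 of the 10, with the matched letters in capitals. Where the match lies on the opposite strand the capitals read TTNCATCA.
Asns (chr6:7693214-7693243, minus strand): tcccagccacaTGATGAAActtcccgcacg
Chac1 (chr2:119351038-119351067, plus strand): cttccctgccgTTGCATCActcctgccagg
Trib3 (chr2:152344028-152344057, minus strand): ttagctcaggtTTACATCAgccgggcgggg
Nupr1 (chr7:126625562-126625591, minus strand): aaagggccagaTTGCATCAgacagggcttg
Pycr1 (chr11:120643833-120643862, minus strand): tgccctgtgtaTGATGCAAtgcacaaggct
Gars (chr6:55037960-55037989, plus strand): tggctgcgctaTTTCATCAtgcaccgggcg
Iars (chr13:49682126-49682155, plus strand): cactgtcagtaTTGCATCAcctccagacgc
Tars (chr15:11399655-11399684, minus strand): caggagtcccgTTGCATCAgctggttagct
Yars (chr4:129189895-129189924, plus strand): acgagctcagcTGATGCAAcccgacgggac
No window was given for Slc7a5 and some synthetases, among them Cars, Hars, Hars2, Lars, Nars, Pars2, Rars, Vars and Wars. Windows of Psat1, Phgdh, Psph, Mthfd2, Aldh18a1, Ddit3 and Atf4 itself held no match, which says only that these letters are not in this window.

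The dissected segments carried the markers of their labels. The 6 markers of proximal tubule S1 and S2 summed to between 7522 and 18208 TPM per animal in PT-S1, where the 6 principal cell markers, which define the CCD, summed to at most 113. This list does not separate S1 from S2. Also in PT-S1, the 5 markers of S3, a later stretch of the proximal tubule, summed to at most 544 TPM. The 6 macrophage and leukocyte markers summed to at most 393 there and the 5 endothelial markers to at most 241. In CCD, principal cell markers summed to between 18746 and 61903 TPM and the proximal S1 and S2 markers to at most 70.7. The macrophage and leukocyte markers summed to at most 380 TPM in CCD and the endothelial markers to at most 307. The 5 intercalated cell markers, of the other CCD cell type, summed to between 2196 and 3878 TPM in CCD. The 4 thick ascending limb markers summed to between 110 and 3497 TPM (mean 1154) in CCD sham animals at 24 h. In UNx animals at that time they summed to between 103 and 222 TPM (mean 164). The part of this in the results was not tested. Within its table, a library's median correlation to the rest fell under 0.92 for 5 libraries, 1 each from sham animals 1 and 3 of PT-S1 at 24 h, UNx animals 1 and 2 of PT-S1 at 72 h, and sham animal 1 of CCD at 72 h. Most results that these libraries move are given with and without them.

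The ATF4 genes split into those high in PT-S1 and those high in CCD, whereas the synthetases lay nearer to equal levels. TPM of separate tables are set side by side here as a description with no test. In sham animals at 24 h, 5 of 20 counted ATF4 rows were higher in every PT-S1 animal than in any CCD animal (all genes: 15.4%) and 14 were higher in every CCD animal (all genes: 57.3%). At 72 h the counts were 5 and 14 of 21, against 12.4% and 56.7% of all genes. The median difference of PT-S1 minus CCD, on log2(TPM + 1), was -1.63 at 24 h and -1.77 at 72 h for the ATF4 genes, -0.18 and -0.53 for the synthetases, and -0.72 and -0.75 for all genes. Of the 36 synthetases, 2 were higher in every PT-S1 animal and 9 in every CCD animal at 24 h, and 1 and 22 at 72 h.

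**Figure D1:**
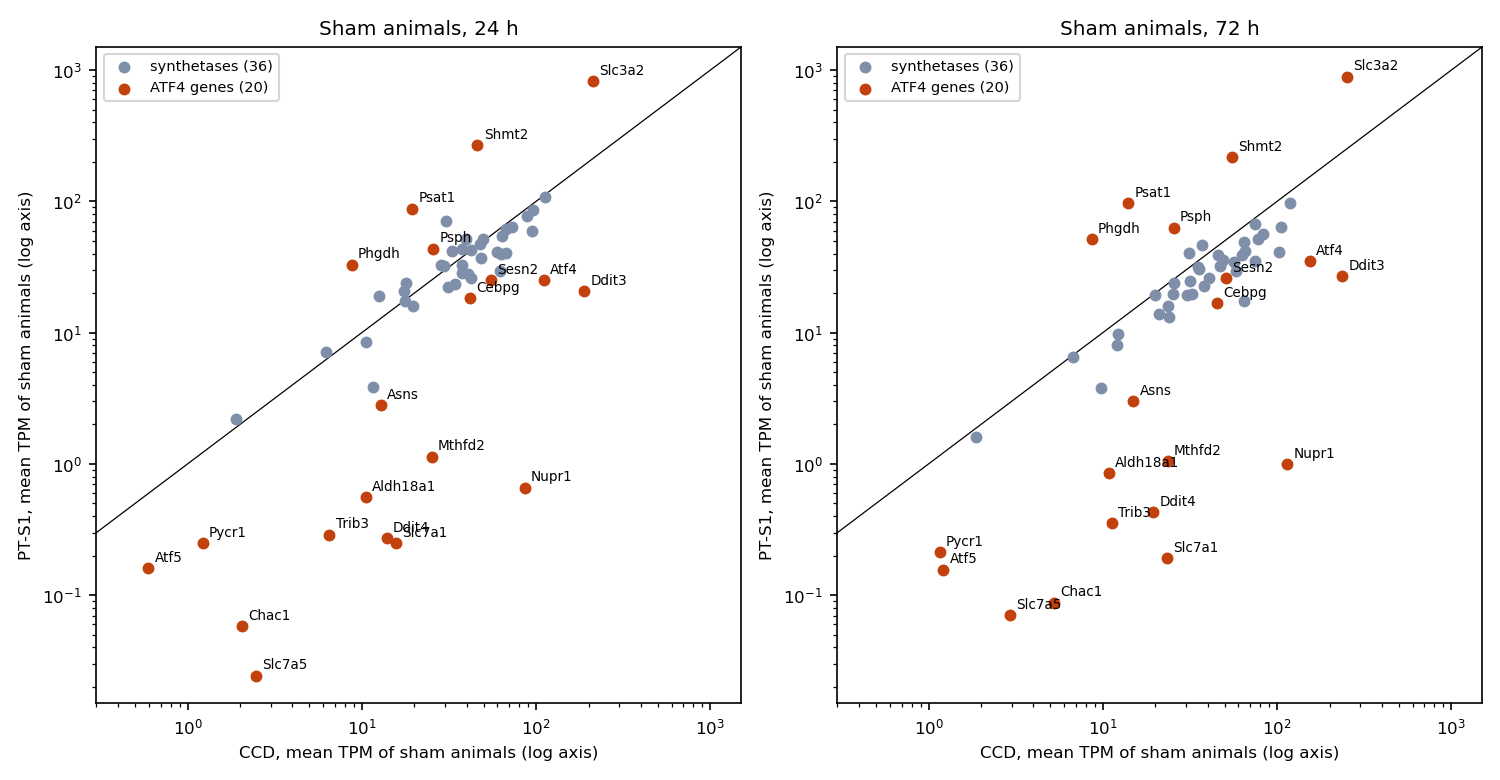
Mean TPM of sham animals in PT-S1 (vertical, log axis) against CCD (horizontal, log axis) for each member at 24 h (left) and 72 h (right); the line marks equal levels and the inner Ddit3 row, at 0 in CCD sham animals, is not drawn. Slc3a2, Shmt2, Psat1, Phgdh and Psph lie above the line, most other ATF4 genes lie far below it, and the synthetases lie nearer to it.

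The genes higher in PT-S1 were the 3 enzymes of serine synthesis, the serine to glycine enzyme Shmt2 of mitochondria, and Slc3a2, the heavy chain that carries several amino acid exchangers to the membrane. Psat1, the aminotransferase of serine synthesis, was at 75.9, 88.9 and 99.8 TPM in the 3 PT-S1 sham animals at 24 h and at 16.1, 18.8, 20.8 and 21.9 TPM in the 4 CCD sham animals. Phgdh, the dehydrogenase that opens the pathway, was at 24.8, 28.1 and 46.0 TPM in PT-S1 and 7.73, 8.05, 9.09 and 10.2 in CCD. For Psph, the phosphatase that closes it, the values were 39.95, 42.6 and 48.7 TPM in PT-S1 and 23.6, 25.3, 26.9 and 27.1 TPM in CCD. None of these 3 genes had a CCD sham animal within the range of PT-S1. Shmt2 averaged 267 ± 4.41 TPM (SD, n = 3) in PT-S1 and 46.1 ± 4.19 TPM (SD, n = 4) in CCD, and Slc3a2, the most abundant member in both segments at 24 h, averaged 829 ± 181 TPM (SD, n = 3) and 213 ± 11.5 TPM (SD, n = 4).

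Genes of the asparagine, proline and folate arms and the stress effectors lay on the CCD side. Asns, which makes asparagine, averaged 2.81 ± 0.494 TPM (SD, n = 3) in PT-S1 and 12.8 ± 1.59 TPM (SD, n = 4) in CCD at 24 h. Mthfd2, the mitochondrial folate enzyme that works next to Shmt2, averaged 1.14 ± 0.148 TPM (SD, n = 3) and 25.2 ± 1.65 TPM (SD, n = 4), so that the neighbouring enzymes of this cycle lay on opposite sides. Aldh18a1, the entry to proline synthesis from glutamate, averaged 0.557 TPM in PT-S1 and 10.5 in CCD. The pseudokinase Trib3 averaged 0.290 and 6.53 TPM, and Chac1, which breaks down glutathione, 0.0583 and 2.07 TPM. Nupr1, a small stress-induced nuclear protein, had the largest difference among members that favoured CCD, -5.68 at 24 h and -5.82 at 72 h on log2(TPM + 1), and averaged 0.659 ± 0.384 TPM (SD, n = 3) and 86.2 ± 27.3 TPM (SD, n = 4) at 24 h. The exchanger light chain Slc7a5 averaged 0.0244 TPM in PT-S1 and 2.48 in CCD, although its partner Slc3a2 was higher in PT-S1.

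The transcription factors were also higher in CCD. Atf4 was at 23.9, 25.8 and 25.8 TPM in PT-S1 sham animals and at 105, 107, 111 and 119 TPM in CCD sham animals at 24 h, a difference of -2.09 on log2(TPM + 1) at 24 h and -2.08 at 72 h. Ddit3, which encodes CHOP, was at 14.5, 23.6 and 24.2 TPM in PT-S1 and 115, 194, 195 and 249 TPM in CCD at 24 h. In PT-S1 many of these genes were barely detected: 9 of 21 ATF4 rows at 24 h and 10 at 72 h stayed under the mean of 1 TPM needed for a test, among them Trib3, Chac1, Nupr1, Slc7a1, Slc7a5, Pycr1, Atf5, Ddit4 and Aldh18a1, while all 36 synthetases passed in every table. In CCD, Atf5 and the inner Ddit3 row stayed under it at 24 h.

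Among synthetases, Sars and Nars were the most abundant in both segments at 24 h. Sars averaged 107 ± 12.0 TPM (SD, n = 3) in PT-S1 and 113 ± 7.36 TPM (SD, n = 4) in CCD at 24 h, Nars 86.6 ± 21.97 TPM (SD, n = 3) and 95.9 ± 10.4 TPM (SD, n = 4), and Dars 77.5 and 89.1 TPM. The lowest was Mars2, the mitochondrial methionine enzyme, at 2.20 and 1.90 TPM. Cytosolic synthetases had a higher mean in PT-S1 for 1 of 19 at 24 h and 0 of 19 at 72 h, and mitochondrial ones for 10 of 17 and 2 of 17. Of all genes, 3548 of 14661 had a higher mean in PT-S1 at 24 h and 3129 of 14621 at 72 h. Only Rars2, the mitochondrial arginine enzyme, was higher in every PT-S1 sham animal at both times among the 36. It was at 49.8, 52.3 and 52.8 TPM in PT-S1 and 36.2, 39.3, 40.5 and 42.4 TPM in CCD at 24 h. In every CCD sham animal, 8 of the 36 were higher at both times. Of all genes, 57.3% at 24 h and 56.7% at 72 h were higher in every CCD animal, and 15.4% and 12.4% in every PT-S1 animal. The share of all genes at both times was not counted.

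No member passed the test for UNx against sham in any of the 4 tables. UNx was compared with sham on log2(TPM + 1) of animal means by limma over all genes with a mean of at least 1 TPM, with Benjamini-Hochberg adjusted p under 0.05 as the threshold, and differences below are UNx minus sham on that scale. Members called were 0 of 48 in PT-S1 at 24 h (all genes: 0%), 0 of 47 in PT-S1 at 72 h (all genes: 0%), 0 of 55 in CCD at 24 h (all genes: 0.987%) and 0 of 57 in CCD at 72 h (all genes: 0.595%). At an unadjusted p under 0.05 the counts were 7 (all genes: 17.8%), 6 (20.5%), 9 (15.5%) and 8 (7.49%), so the members' shares of 7 in 48 and 6 in 47 lay below those of all genes in PT-S1, 9 in 55 lay near it in CCD at 24 h and 8 in 57 above it at 72 h. Members that were called under another setting are named beside their results. Whether animals within a group were housed or operated together is not stated. The p-values set each difference against the spread between animals within groups, and cannot separate UNx from anything else that the animals of a group shared.

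**Figure D2:**
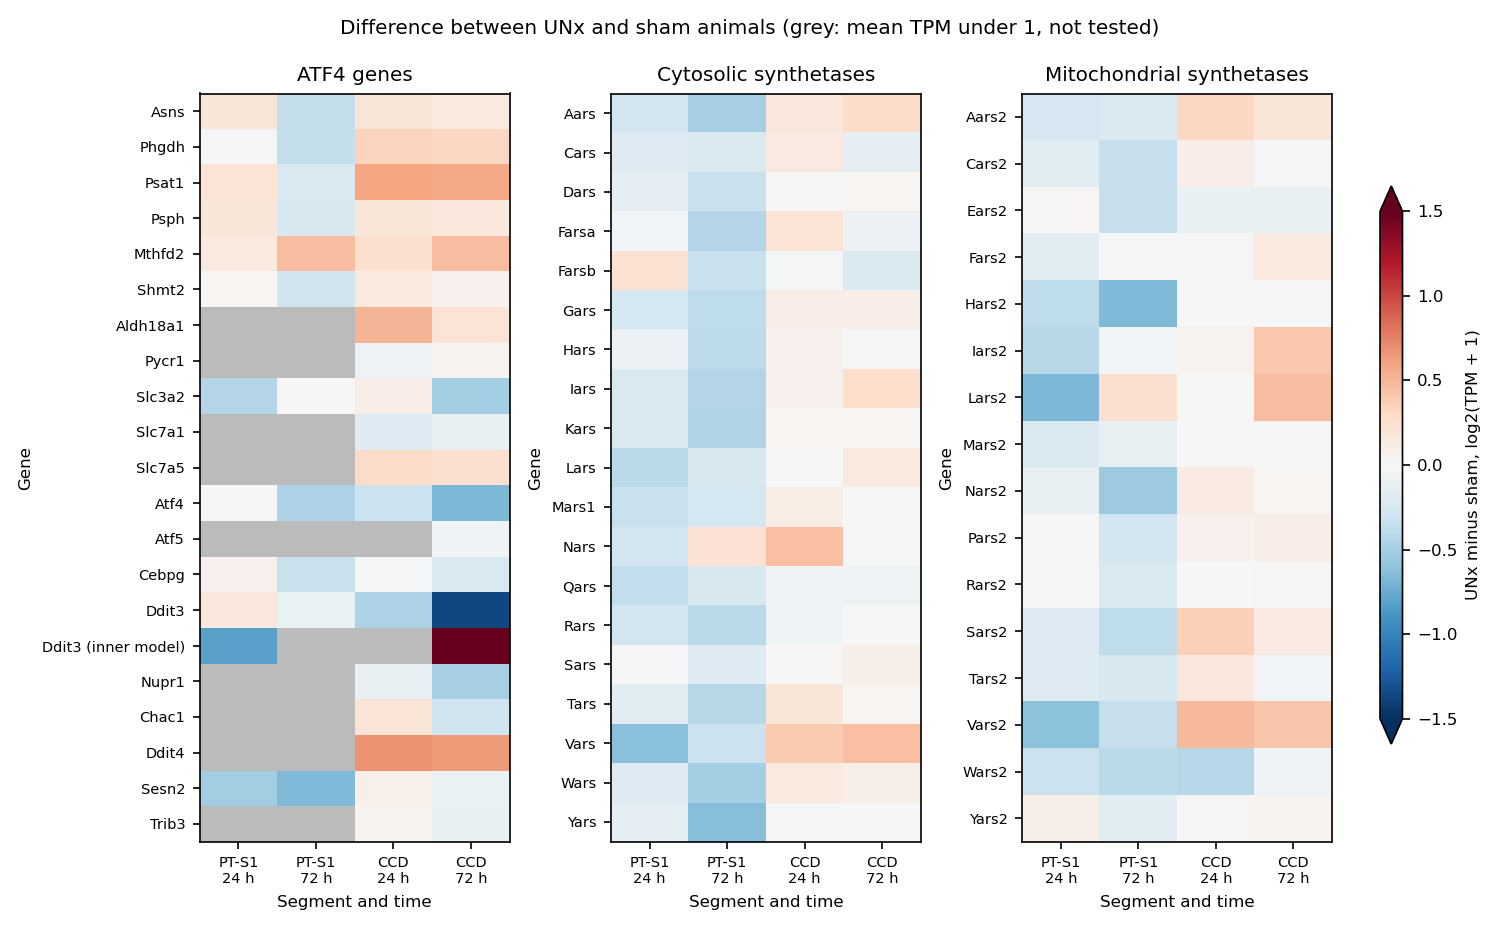
UNx minus sham on log2(TPM + 1) for 56 of the 57 member rows (rows) in each segment and time (columns), as colour from blue (lower in UNx) to red (higher in UNx); grey marks a mean under 1 TPM and values past 1.5 take the end colour. Serine synthesis genes and Mthfd2 are red in both CCD columns, Atf4 and Ddit3, in its longer row, are blue there, and most synthetases are blue in PT-S1 and pale in CCD.

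The serine genes had higher means after UNx in CCD at both times. Psat1 was at 16.1, 18.8, 20.8 and 21.9 TPM in the 4 CCD sham animals at 24 h and at 27.0, 28.9 and 33.0 TPM in the 3 UNx animals. Every UNx animal lay above every sham animal, with a difference of 0.59 (SE 0.13, adjusted p = 0.0695). At 72 h Psat1 was at 10.9, 12.9, 12.9 and 19.3 TPM in sham and 18.1, 20.6, 21.6 and 23.3 in UNx animals. Here the lowest UNx animal lay below the highest sham animal, with a difference of 0.58 (SE 0.17, adjusted p = 0.335). Psat1 at 24 h was called with every library as a replicate (adjusted p = 0.0014), with animals as random effects (0.00575) and with limma's sample weights (0.0474). These settings called 7.46%, 3.52% and 1.48% of all genes, against 0.987% with animals as replicates. With every library as a replicate, here and below, libraries of 1 animal are counted as independent, which they are not.

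Phgdh was at 7.73, 8.05, 9.09 and 10.2 TPM in sham and 9.88, 11.6 and 12.6 in UNx animals of CCD at 24 h, with a difference of 0.34 (SE 0.14, adjusted p = 0.273). The groups overlapped by 1 animal on each side. Its difference at 72 h was 0.31 (SE 0.17, adjusted p = 0.786). Psph was at 23.6, 25.3, 26.9 and 27.1 TPM in sham and 27.7, 29.6 and 30.9 in UNx animals at 24 h. Those groups did not overlap, and its differences were 0.18 (SE 0.088, adjusted p = 0.385) at 24 h and 0.16 (SE 0.15, adjusted p = 0.907) at 72 h. In PT-S1, where the pathway was more abundant, no serine gene had groups apart at either time. Psat1 in PT-S1 at 24 h spread from 60.5 to 147 TPM among UNx animals, around the sham range of 75.9 to 99.8, and Phgdh spread from 13.3 to 62.3 TPM. The differences of Psat1 there were 0.21 (SE 0.27, adjusted p = 0.671) at 24 h and -0.23 (SE 0.26, adjusted p = 0.558) at 72 h, those of Phgdh -0.026 and -0.36, and those of Psph 0.18 and -0.24. Without the libraries of low correlation, Psat1, Phgdh and Psph in PT-S1 stood at 0.17, 0.13 and -0.13 at 72 h and at 0.027, -0.28 and 0.062 at 24 h.

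Mthfd2 had higher means after UNx in all 4 tables and, at 72 h, the smallest p among the members in each segment. In CCD at 72 h it was at 20.6, 21.0, 25.9 and 26.9 TPM in sham and 31.9, 32.3, 32.6 and 34.3 in UNx animals. All UNx animals lay above all sham animals, with a difference of 0.47 (SE 0.12, adjusted p = 0.201). It was called with every library as a replicate (adjusted p = 0.022) and with animals as random effects (0.047), when 1.09% and 0.886% of all genes were. At 24 h in CCD it was at 23.3, 24.5, 26.1 and 27.0 TPM in sham animals and at 26.1, 31.0 and 33.1 TPM after UNx. The lowest UNx animal there lay within the sham range, and the difference was 0.24 (SE 0.10, adjusted p = 0.32). In PT-S1 the gene lay near 1 TPM, where log2(TPM + 1) understates a change. It was at 0.575, 0.775, 1.02, 1.19 and 1.68 TPM in sham and 1.32, 1.505, 1.93, 2.04 and 2.17 in UNx animals at 72 h. The groups overlapped, with a difference of 0.46 (SE 0.17, adjusted p = 0.237). The gene was called with sample weights (adjusted p = 0.0448), when 11.3% of all genes were. Shmt2, its neighbour in the cycle, differed by 0.15 in CCD at 24 h and 0.063 at 72 h, and by 0.030 and -0.29 in PT-S1. Without the libraries of low correlation Shmt2 stood at 0.29 in PT-S1 at 72 h and 0.0017 in CCD at 72 h.

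Of the proline and asparagine enzymes, Aldh18a1 had groups apart in CCD. It was at 9.54, 10.04, 11.1 and 11.4 TPM in sham and 14.0, 14.98 and 17.6 in UNx animals at 24 h. The groups did not overlap, and the difference was 0.51 (SE 0.12, adjusted p = 0.0838). The gene was called with every library as a replicate (adjusted p = 0.003) and with animals as random effects (0.0126), when 7.46% and 3.52% of all genes were. At 72 h the groups overlapped, with 0.20 (SE 0.19, adjusted p = 0.9), and -0.027 without the sham library of low correlation. Pycr1, the last step to proline, averaged 1.22 TPM in sham and 1.10 in UNx animals of CCD at 24 h. Asns was at 11.5, 11.8, 12.8 and 15.04 TPM in sham and 12.1, 12.6 and 20.7 in UNx animals of CCD at 24 h. A single UNx animal lay above the sham range, and the difference was 0.18 (SE 0.18, adjusted p = 0.683). Its differences were 0.15 in CCD at 72 h, 0.18 in PT-S1 at 24 h and -0.36 in PT-S1 at 72 h, all with overlapping groups, and the PT-S1 values were 0.047 and -0.18 without the low libraries. The Asns promoter holds the element shown above 23 bases before the start, whereas the windows of Psat1, Mthfd2 and Aldh18a1 hold none.

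**Figure D3:**
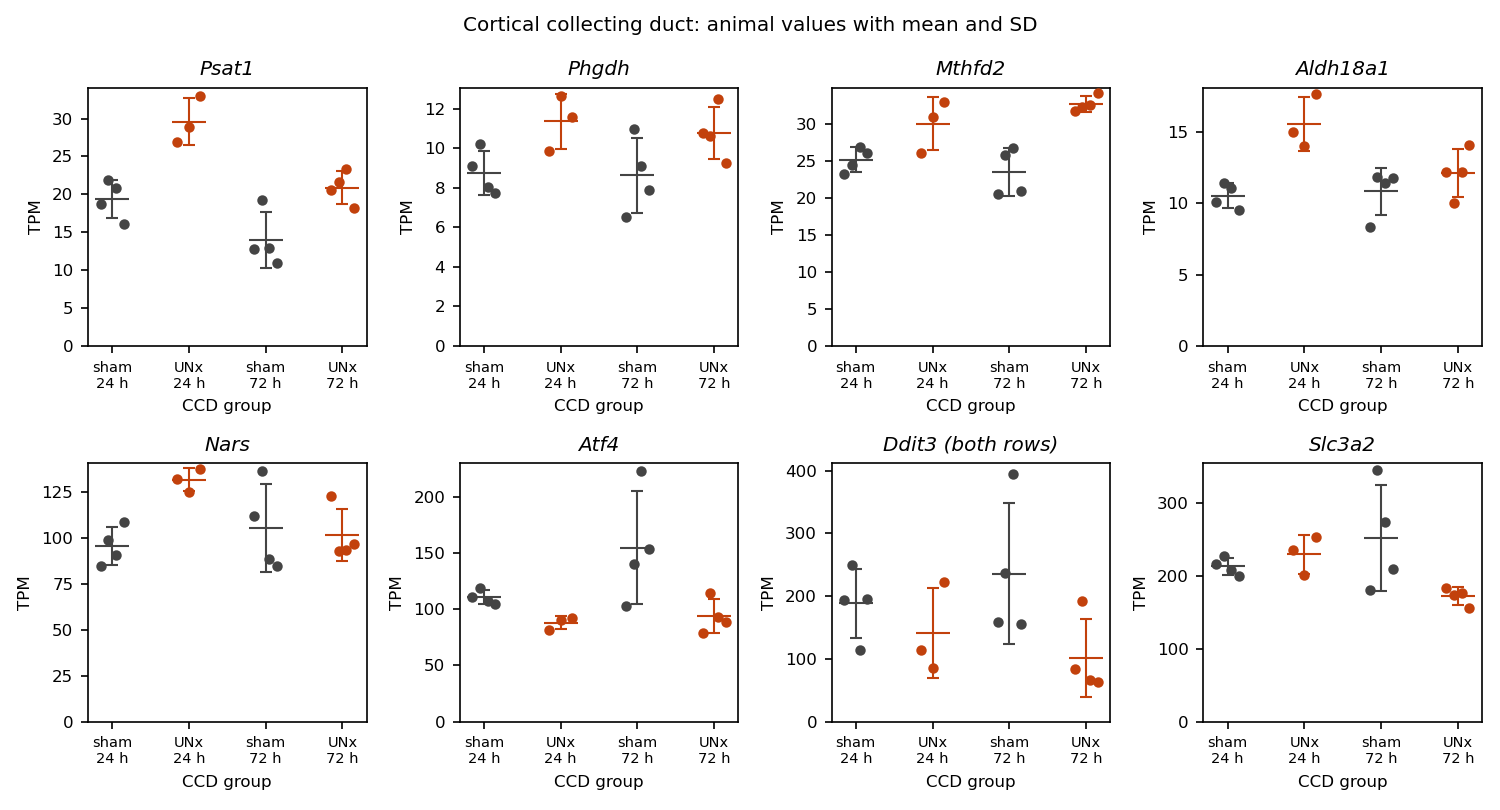
TPM of each animal (points) with the mean and SD (bars) for 8 members in sham (grey) and UNx (orange) animals of CCD at 24 h and 72 h; Ddit3 is the sum of its 2 rows. Psat1, Aldh18a1 and Nars have all UNx animals above all sham animals at 24 h and Mthfd2 at 72 h, while Atf4 has all UNx animals below at 24 h.

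Atf4 itself pointed the other way. In CCD at 24 h it was at 105, 107, 111 and 119 TPM in sham and 81.3, 90.6 and 92.04 in UNx animals. All UNx animals lay below all sham animals, with a difference of -0.33 (SE 0.078, adjusted p = 0.0904). The gene was called with every library as a replicate (adjusted p = 0.045), when 7.46% of all genes were. At 72 h in CCD it was at 103, 140.1, 153 and 223 TPM in sham and 78.6, 88.9, 92.7 and 115 in UNx animals. The lowest sham animal lay below the highest UNx animal, and the difference was -0.67 (SE 0.21, adjusted p = 0.366). In PT-S1 the differences were 0.0053 at 24 h and -0.46 (SE 0.18, adjusted p = 0.237) at 72 h, where it was at 27.7, 30.6, 33.5, 34.1 and 49.6 TPM in sham and 22.7, 24.7, 25.5, 27.8 and 28.2 in UNx animals. The 72 h groups of PT-S1 overlapped only through the lowest sham animal, and the difference there was -0.20 (adjusted p = 0.554) without the libraries of low correlation.

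Ddit3 has 2 rows: a gene at chr10:127290774-127296288 on the plus strand and a shorter model, chr10:127290829-127293753, inside it (GENCODE M21 on GRCm38). Reads may be split between them, and Mars1, on the other strand, overlaps the end of Ddit3 by 68 bases, so values of these rows are uncertain. The longer row was at 156, 158, 236 and 394 TPM in sham and 57.7, 60.5, 83.4 and 167 in UNx animals of CCD at 72 h. The highest UNx animal lay within the sham range, and the difference was -1.37 (SE 0.38, adjusted p = 0.257). The inner row was listed at 0 in all 4 of these sham animals and at 0, 2.20, 8.94 and 26.0 TPM in UNx animals, and with both rows added the difference was -1.25 (SE 0.39, adjusted p = 0.351). With both rows added, the differences were -0.45 in CCD at 24 h, 0.022 in PT-S1 at 24 h and -0.10 in PT-S1 at 72 h. The longer row alone stood at -0.47, 0.17 and -0.10 there. In PT-S1 at 24 h the inner row was at 0, 1.25 and 7.61 TPM in sham animals and listed at 0 in all 4 UNx animals. It was called with sample weights (adjusted p = 0.039), when 12% of all genes were. Cebpg, a C/EBP partner of ATF4, differed by -0.023 in CCD at 24 h and by -0.23 (SE 0.11, adjusted p = 0.7) at 72 h. In PT-S1 Cebpg differed by 0.061 at 24 h and by -0.34 (SE 0.17, adjusted p = 0.257) at 72 h. With all animals in, the latter ran from -0.37 to 0.019 under other settings.

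Stress effectors spread widely among animals. Trib3 was at 3.86, 6.81, 10.3 and 24.1 TPM in sham and 5.85, 8.10, 9.91 and 10 in UNx animals of CCD at 72 h, with a difference of -0.11 (SE 0.43, adjusted p = 0.982). Chac1 was at 2.22, 2.47, 3.64 and 12.6 TPM in sham and 1.83, 2.69, 3.04 and 5.16 in UNx animals, with a difference of -0.29 (SE 0.47, adjusted p = 0.951). Without the sham library of low correlation the differences of Trib3 and Chac1 were -0.17 and -0.51. The highest sham value of both genes came from sham animal 2, which had 1 library, and that animal was also the highest sham animal for Nupr1 (197 TPM), Ddit4 (51.3 TPM), Asns (20.5 TPM), Psat1 (19.3 TPM) and Slc3a2 (345 TPM). Atf4 and Ddit3 were highest in sham animal 3 instead. At 24 h in CCD, Trib3 differed by 0.037, Chac1 by 0.19 and Ddit4, an mTOR inhibitor, by 0.68 (SE 0.38, adjusted p = 0.438). Sesn2, a stress-induced inhibitor of mTOR signalling, had the smallest p among members of PT-S1 at 24 h. It was at 21.97, 22.9 and 30.6 TPM in sham and 13.6, 15.3, 17.0 and 19.5 in UNx animals. The groups did not overlap, and the difference was -0.52 (SE 0.19, adjusted p = 0.254) beside a median of -0.19 over all genes tested. The gene was called with sample weights (adjusted p = 0.0307), when 12% of all genes were. In CCD its differences were 0.072 at 24 h and -0.095 at 72 h, the latter -0.20 without the low library.

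Of the transporters, Slc3a2 in CCD at 72 h was at 180.4, 210.1, 274 and 345 TPM in sham and 155, 174, 177 and 183 in UNx animals, with a difference of -0.51 (SE 0.18, adjusted p = 0.495). The highest UNx animal passed the lowest sham animal. At 24 h in CCD the difference was 0.10 (SE 0.091, adjusted p = 0.635). In PT-S1 at 24 h Slc3a2 differed by -0.44 (SE 0.24, adjusted p = 0.333), and by -0.61 to -0.20 under other settings. At 72 h in PT-S1 it differed by -0.011, and the groups overlapped at both times. The cationic amino acid transporter Slc7a1 differed by -0.19 and -0.12 in CCD and Slc7a5 by 0.27 and 0.24, with overlapping groups in each case, and Slc7a5 stood at 0.085 at 72 h without the low library.

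Nars, the cytosolic asparagine enzyme, had the smallest p among all members in CCD at 24 h. It was at 84.6, 91.0, 99.2 and 109 TPM in sham and 125, 132 and 138 in UNx animals. All UNx animals lay above all sham animals, with a difference of 0.46 (SE 0.094, adjusted p = 0.0655). It was called with median-ratio scaling (adjusted p = 0.0396), with every library as a replicate (0.00395), with animals as random effects (0.0126) and with sample weights (0.0499). These settings called 1.26%, 7.46%, 3.52% and 1.48% of all genes. At 72 h in CCD Nars was at 85.1, 88.4, 112 and 137 TPM in sham and 92.8, 93.7, 97.0 and 123 in UNx animals. The UNx range lay inside the sham range, with a difference of -0.025 (SE 0.16, adjusted p = 0.992), and -0.14 without the sham library of low correlation. In PT-S1 the differences of Nars were -0.29 (SE 0.16, adjusted p = 0.336) at 24 h and 0.22 (SE 0.19, adjusted p = 0.448) at 72 h, the latter 0.097 (adjusted p = 0.652) without the low libraries.

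Counted on log2 animal means, 3 of 36 synthetases of CCD at 24 h were higher in every UNx animal (all genes: 5.55%) and 2 lower (all genes: 9.51%). Besides Nars, these were Sars2, Cars2, Wars2 and Ears2, all of mitochondria. Sars2 was at 13.5, 18.2, 18.5 and 20.7 TPM in sham and 21.7, 22.5 and 23.8 in UNx animals, a difference of 0.36 (SE 0.14, adjusted p = 0.258). Wars2 was at 5.49, 6.34, 6.48 and 6.68 TPM in sham and 3.77, 4.62 and 4.68 in UNx animals, a difference of -0.43 (SE 0.13, adjusted p = 0.164), so the 2 enzymes lay in opposite directions. Both were called with every library as a replicate (all genes: 7.46%), at an adjusted p of 0.0467 for Sars2 and 0.0263 for Wars2. Vars2 differed by 0.49 (SE 0.18, adjusted p = 0.234) and the cytosolic Vars by 0.39 (SE 0.19, adjusted p = 0.387), with overlapping groups. At 72 h in CCD, 2 of 36 synthetases were apart, both higher (all genes: 3.23%). Aars was at 42.9, 50.3, 51.2 and 52.6 TPM in sham and 54.3, 54.8, 58.0 and 58.8 in UNx animals, without overlap, a difference of 0.27 (SE 0.14, adjusted p = 0.746). Iars2 differed by 0.41 (SE 0.16, adjusted p = 0.574). Without the sham library of low correlation Aars stood at 0.028 and Iars2 at 0.17 (adjusted p = 0.939 and 0.659), and 0 of 36 synthetases were apart. None of these genes had groups apart in the same direction at both CCD times, in which 154 of 13253 genes tested (1.16%) were apart upward and 29 (0.219%) downward.

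As a group, the synthetases of CCD at 24 h sat slightly above the other genes. Their median difference was 0.065, with 26 of 36 positive (all genes: 41.8% positive), beside -0.038 over all genes tested. Relative to that median, 32 of 36 were above it, 17 of 19 cytosolic and 15 of 17 mitochondrial. The tested ATF4 genes of this table sat higher, with a median of 0.15, 13 of 19 positive and 14 above the median of all genes. Of these 19, 3 were apart upward (all genes: 5.55%) and 1 downward (all genes: 9.51%). Library by library, the median of the synthetases minus that of all genes, each against the sham mean, ran from -0.024 to 0.067 in the 8 sham libraries and from 0.075 to 0.16 in the 7 UNx libraries, without overlap. For the ATF4 genes these ranges overlapped, at -0.20 to 0.18 in sham and 0.0068 to 0.56 in UNx libraries. Their median minus that of all genes was 0.19 with all animals and 0.076 without UNx animal 3. Libraries of 1 animal are not independent. In this table principal cell markers summed to between 19291 and 45917 TPM in sham and between 42672 and 61903 in UNx animals, and the 5 S3 markers to between 107.8 and 122.9 in sham and 73.0 and 97.7 in UNx animals. The 5 fibroblast and mural markers, 4 of them averaging under 1 TPM, summed to between 2.35 and 3.89 in sham and between 4.365 and 5.275 in UNx animals. The part of these cell types in these results was not tested, and in dissected tubules fewer cells of a type and less RNA per cell cannot be told apart. At 72 h in CCD the median was 0.031, with 24 of 36 positive, beside 0.010 over all genes (52.2% positive). The library ranges at 72 h, leaving out the sham library of low correlation, were -0.055 to 0.13 in sham and -0.0058 to 0.067 in UNx and overlapped. Without that library the median difference was -0.051, with 12 of 36 positive (all genes: 36.8%), beside -0.072 over all genes. The ATF4 genes of CCD at 72 h had a median of 0.043, with 11 of 21 positive and 11 above the median of all genes. Without the sham library of low correlation their median was 0.0017, with 11 positive and 12 above the median of all genes.

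After UNx, 32 of the 36 synthetases had lower means in PT-S1 at 24 h, with a median difference of -0.21, and this was also the position of all genes, whose median was -0.19 (29.1% positive). Relative to that median, 15 of 36 synthetases were above it. With quantile normalization or median-ratio scaling the median of all genes moved to -0.011 and 0.011, so directions in PT-S1 are read relative to it. Without the libraries of low correlation the synthetase median was -0.22, with 1 of 36 positive (all genes: 22.9%). The tested ATF4 genes, 12 of 21, had a median of 0.045, with 8 positive and 9 above the median of all genes, but those under 1 TPM are not in this count. Without the libraries of low correlation their median was -0.030, with 6 positive and 8 above the median of all genes, which was then -0.21. Apart downward, on log2 animal means, were 5 of 36 synthetases (all genes: 12.1%) and none upward (all genes: 2.79%). Without the libraries of low correlation 10 of 36 were apart downward and 0 upward. The share of all genes was not counted in that setting. Hars2, 1 of the 5, was at 26.4, 26.5 and 31.0 TPM in sham and 17.3, 19.4, 20.8 and 23.1 in UNx animals, without overlap, a difference of -0.38 (SE 0.17, adjusted p = 0.277). The valine enzymes Vars and Vars2 differed by -0.63 (SE 0.26, adjusted p = 0.267) and -0.61 (SE 0.25, adjusted p = 0.268), Lars2 by -0.68 (SE 0.30, adjusted p = 0.278) and Qars by -0.37 (SE 0.17, adjusted p = 0.278). Vars was at 21.3, 23.4 and 44.2 TPM in sham animals, and the highest of these, like that of Vars2, was sham animal 1, which holds a library of low correlation. Without both such libraries, Lars2 and Qars differed by -0.29 (adjusted p = 0.418) and -0.23 (adjusted p = 0.315), and Vars and Vars2 by -0.59 (adjusted p = 0.137) and -0.51 (adjusted p = 0.196). The 3 distal convoluted tubule markers, each averaging under 1 TPM, summed to between 1.085 and 1.29 TPM in sham and between 0.295 and 0.93 in UNx animals of this table, and their part in these results was not tested.

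The result for PT-S1 at 72 h rested on 2 libraries. The synthetases had a median difference of -0.34, with 2 of 36 positive, beside -0.29 over all genes (17% positive). In the low-correlation libraries of UNx animals 1 and 2 the synthetase median lay at -2.09 and -1.78 against the sham mean, while that of all genes lay at -1.42 and -1.28, so the synthetases lay 0.68 and 0.50 below the other genes. In the other 10 UNx libraries the synthetases lay between 0.042 and 0.18 above the other genes, and in the 12 sham libraries between 0.17 below and 0.15 above. Without the 2 libraries the median of the synthetases was 0.093, with 25 of 36 positive (all genes: 46% positive), beside -0.021 over all genes. Nars and Lars2 went against the rest: in UNx animals 1 and 2, whose means hold these libraries, Nars was at 104 and 96.9 TPM beside 58.5 to 63.0 in the other 3 UNx animals, and Lars2 at 122 and 136 beside 25.2 to 32.0. Leaving out these libraries, 1 of 36 synthetases was apart upward and 0 downward, and the share of all genes was not counted in that setting. With all libraries in, 1 of 36 was apart downward on log2 animal means (all genes: 5.33%) and none upward (all genes: 0.236%). This was Yars, the tyrosine enzyme, which was at 23.6, 24.0, 26.2, 27.4 and 28.4 TPM in sham and 13.0, 16.3, 21.0, 21.5 and 23.1 in UNx animals, a difference of -0.64 (SE 0.25, adjusted p = 0.237), and of -0.15 (adjusted p = 0.489) without these libraries. Hars2, Tars and Wars2 differed by -0.66, -0.42 and -0.40 with them and by -0.10, -0.0094 and -0.071 without. The tested ATF4 genes of this table, 11 of 21, had a median of -0.29, with 1 positive and 5 above the median of all genes. Without the 2 libraries 12 were tested, with a median of 0.021, 6 positive and 6 above the median of all genes. The 5 intercalated cell markers summed to between 3.49 and 20.8 TPM in sham and between 1.86 and 2.78 in UNx animals of this table, and their part in these results was not tested.

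**Figure D4:**
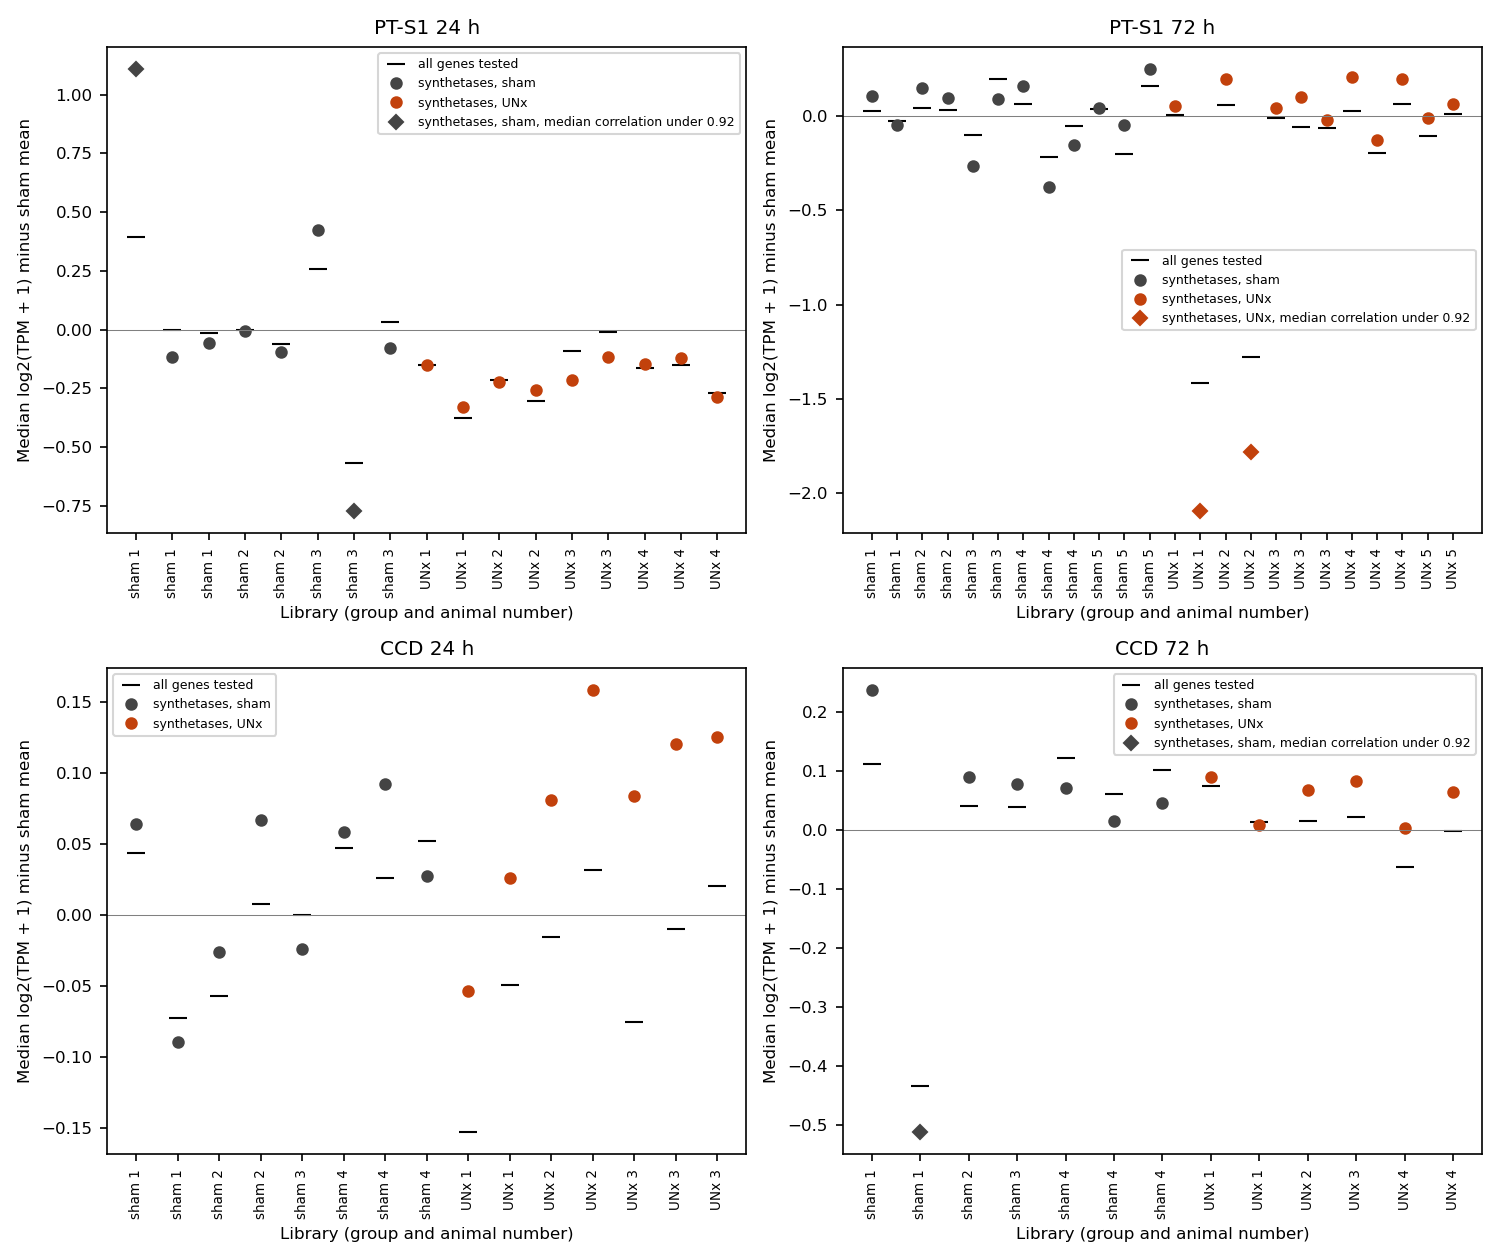
Median of the 36 synthetases (points) and of all genes tested (dashes) in each library, as log2(TPM + 1) minus the sham mean of its table, with 1 panel for each segment and time and libraries ordered by group and animal. Diamonds mark libraries of low correlation, in which synthetases lie farther from 0 than all genes, and in CCD at 24 h the UNx points lie above their dashes.

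Synthetases with a promoter match are described beside those without. In CCD at 24 h the 5 with a match had a median difference of 0.10, 4 of them positive, and the 21 with a window but no match had 0.022, 14 positive. At 72 h in CCD the medians were 0.10 and 0.030, in PT-S1 at 24 h -0.22 and -0.19, and in PT-S1 at 72 h -0.44 and -0.27. All these hold the libraries of low correlation, and the split was not made without them. In PT-S1 at 72 h the median of all 36 synthetases moved from -0.34 to 0.093 when those libraries were left out. Among ATF4 genes of CCD at 24 h the 5 with a match had a median of 0.037 and the 13 without one 0.15.

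Whether the difference between UNx and sham itself differed between times or segments was tested in models of 4 groups, and no member passed. Between times, members called were 0 of 47 in PT-S1 and 0 of 55 in CCD (all genes: 0% in both). At an unadjusted p under 0.05 there were 0 of 47 in PT-S1 (all genes: 3.33%) and 2 of 55 in CCD (all genes: 4.96%). Between segments, members called were 0 of 47 at 24 h (all genes: 0.137%) and 0 of 47 at 72 h (all genes: 0%), with 10 (all genes: 15.4%) and 4 (all genes: 9.33%) at an unadjusted p under 0.05. The 2 in CCD were Slc3a2, at -0.61 (SE 0.22, adjusted p = 0.968) for 72 h minus 24 h, and Nars, at -0.48 (SE 0.20, adjusted p = 0.968). In PT-S1 the smallest p was that of Nars, at 0.51 (SE 0.26, adjusted p = 0.998), and 0.30 (adjusted p = 0.273) without the libraries of low correlation.

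Between segments at 24 h, PT-S1 minus CCD, Nars stood at -0.74 (SE 0.17, adjusted p = 0.122), Vars2 at -1.10 (SE 0.33, adjusted p = 0.172), Vars at -1.02 (SE 0.35, adjusted p = 0.221) and Sars2 at -0.55 (SE 0.19, adjusted p = 0.23). Nars was called without sham animal 3 of PT-S1 (-0.80, adjusted p = 0.047), when 1.49% of all genes were. Of the ATF4 genes, Sesn2 stood at -0.59 (SE 0.22, adjusted p = 0.246) and Atf4 at 0.33 (SE 0.15, adjusted p = 0.305). The median over the synthetases was -0.30 at 24 h, 31 of 36 negative, beside -0.13 over all genes. At 72 h Ddit3, in its longer row, stood at 1.27 (SE 0.43, adjusted p = 0.495) and Psat1 at -0.81 (SE 0.34, adjusted p = 0.495). Without the libraries of low correlation they stood at 1.19 and -0.33 (adjusted p = 0.232 and 0.536). The sum of both Ddit3 rows was not fitted between segments. With all libraries in, Yars, Lars, Aars and Vars stood at -0.63, -0.39, -0.77 and -0.77, and Phgdh and Psph at -0.67 and -0.39 (adjusted p = 0.495 for each). The synthetase median at 72 h was -0.38, 35 of 36 negative, and 0.11, 7 of 36 negative, without the libraries of low correlation, beside -0.30 and 0.057 over all genes. The change of sign also held between times in PT-S1, where the synthetase median was -0.16 with these libraries, 12 of 36 positive, and 0.29 without them, 35 of 36 positive, beside -0.098 and 0.20 over all genes. Without them Aars2 at 0.78, Iars2 at 0.76 and Vars at 0.81 had adjusted p-values of 0.0552, 0.0601 and 0.0738, when 187 of 11443 genes were called.

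Synthetases varied less between animals than the ATF4 genes in CCD and in PT-S1 at 24 h. The median SD between animals of a group, on log2(TPM + 1), was 0.11 for synthetases, 0.17 for ATF4 genes and 0.17 for all genes in CCD at 24 h, and 0.16, 0.37 and 0.25 in CCD at 72 h. In PT-S1 it was 0.18, 0.31 and 0.28 at 24 h and 0.40, 0.41 and 0.36 at 72 h, the table with the 2 low libraries of UNx. The ATF4 gene with the widest spread at 24 h was Trib3 in CCD (0.66) and Phgdh in PT-S1 (0.82).

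The mean of the synthetases followed that of many other genes. Over the 32 animal means, each centred on the sham mean of its table, the 5 genes outside the members with the highest Pearson r to the synthetase mean were Stard7 (0.982), Eif3b (0.976), Usp5 (0.976), Trpc4ap (0.975) and Osbpl2 (0.974). Of 10642 genes, 2155 had an r over 0.8 and the median was 0.579, and the points share the library and its shift against all genes. Among the ATF4 genes the highest r was that of Sesn2 (0.894) and Shmt2 (0.856), while Atf4 (0.142), Psph (0.165), Mthfd2 (-0.150) and Ddit3 (-0.291) were low. These values are descriptions over all animals. They hold the libraries of low correlation and are not given without them.

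Other genes of the pathway likewise gave no call by limma. None passed in either direction in any of the 4 tables among the 12 genes that control eIF2, up to 19 tested of 23 further ATF4 targets, 10 partners and relatives of the synthetases, and 14 chaperones of the endoplasmic reticulum, where all genes called were 0%, 0%, 0.987% and 0.595%. In CCD at 72 h Gdf15, a secreted stress signal, averaged 821 ± 589.5 TPM in sham and 263 ± 221 in UNx animals (± SD, 4 animals in each group), a difference of -1.70 (SE 0.68, adjusted p = 0.596). Ppp1r15a, which lifts the eIF2 block, averaged 216 ± 80.6 TPM in sham and 108 ± 65.6 in UNx animals, a difference of -1.09 (SE 0.39, adjusted p = 0.487), and Herpud1 differed by -0.52 (SE 0.19, adjusted p = 0.526). All 3 had lower means, whereas their lists were mixed. Of the 19 further ATF4 targets tested in that table, 13 had higher means (all genes: 52.2%), with a median of 0.10 beside 0.010 over all genes. Of these 19, 1 was apart upward (all genes: 3.23%). Without the sham library of low correlation, 8 of 19 had higher means (all genes: 36.8%), with a median of -0.074 beside -0.072, and Gdf15 stood at -1.57 (adjusted p = 0.37). Of the 12 genes that control eIF2, 5 had higher means there with that library in and 2 without it. Among the kinases, Eif2ak2, which senses double-stranded RNA, differed by -0.52 (SE 0.14, adjusted p = 0.118) in CCD at 24 h and Eif2ak4, which senses uncharged tRNA, by -0.68 (SE 0.20, adjusted p = 0.254) in PT-S1 at 24 h. In PT-S1 at 72 h Ppp1r15a differed by -0.75 (SE 0.21, adjusted p = 0.237) and Xpot, which exports tRNA from the nucleus, by -0.74 (SE 0.21, adjusted p = 0.237), beside the median of -0.29 over all genes. Without the libraries of low correlation these were -0.37 (adjusted p = 0.209) and -0.20 (adjusted p = 0.575), beside -0.021. Of the partners, Eprs, the fused glutamate and proline enzyme, differed by -0.20 (SE 0.11, adjusted p = 0.419) in CCD at 24 h and -0.27 (SE 0.14, adjusted p = 0.748) at 72 h.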

How the data were processed

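RNA-seq libraries had been made from microdissected tubules with a Zymo RNA kit and SMART-Seq V4 cDNA from polyA RNA, and sequenced on an Illumina NovaSeq, per the labels' protocols. The authors deposited 4 tables of TPM values per gene and library, 1 for each segment and time. The submitters' processing notes name STAR, RSEM 1.3.3 and GRCm39, and their roles and the annotation are not given in the sources used here. TPM is relative within a library, so a shift of abundant genes moves all others, and it keeps no depth: no counting error could be given. All 69 columns were used: 47 matched 1 sample by name, 4 were the only library of their animal, and 18 gave the group and animal but not which library. Columns not used were 0.

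Libraries of an animal were averaged as log2(TPM + 1), with a pseudocount of 1, so the animal is the replicate. The animals of each table had to average 1 TPM or more for a gene to be fitted, by limma 3.58.1 in R 4.3.3, with a mean-variance trend, two-sided, with Benjamini-Hochberg adjustment over all genes tested and a threshold of 0.05. Differences of effects between times or segments came from models of 4 groups over genes passing in both tables. Tables were treated as normalized separately, so levels between segments have no test. Same-numbered sham and UNx animals did not correlate above 0.1 in every pair of any table, so no pairing was used. The fits were tested on simulated data.

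The members and lists were chosen with earlier results of these data known, so their p-values are not independent support. Named genes were drawn from members with an adjusted p under 0.05 or, with none, the 4 with the smallest p in each member group. Added to these were Atf4, Asns, Psat1, Phgdh, Psph, Ddit3, Trib3 and Chac1, the 3 most abundant of each member group per segment, and up to 3 genes of each other list. Not every value of the genes drawn is given, mainly for differences between times and segments. Others named for their values, such as Pycr1, Ddit4, Slc7a1, Slc7a5, Cars2, Ears2, Rars2 and Mars2, were chosen after their values were seen. Alternatives were other pseudocounts (0.1 and 5), no filter, a mean of at least 5 TPM, quantile normalization, median-ratio scaling, log2 of animal means, libraries as replicates, animals as random effects, sample weights, leaving out libraries with a median correlation under 0.92, a replicate block and leaving out each animal. Adding both Ddit3 rows was chosen after seeing the data. Values of 1 synthetase and 1 promoter sequence are not reported here.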

Additional observations from a re-analysis of the deposited data

Results flagged for a closer look

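Among 76 groups of 4 or 5 animals looked at, 2 held an animal far from the others by Dixon's gap, and chance marks about 1 group in 20. Ddit3 was at 34.1 TPM in UNx animal 1 of PT-S1 at 72 h, while the other 4 UNx animals lay between 20.7 and 24.5. That animal holds a library of low correlation. Chac1 was at 12.6 TPM in sham animal 2 of CCD at 72 h, while the other 3 sham animals lay between 2.22 and 3.64. Its difference turned from -0.29 to 0.20 without this animal.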

How the results depend on the processing

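No member was called in any of the 8 comparisons with the pseudocounts, filters or quantile normalization, in the 4 comparisons of UNx with sham on log2 of animal means or with the replicate block, or in the 7 comparisons with a library of low correlation when these were left out. The replicate block, log2 of animal means, libraries as replicates, random effects and weights were not run for the differences between times or segments. Of 1736 values of 83 named results under alternatives, 1675 kept their direction and side of the threshold, 18 passed it and 43 changed sign, and the cause of the changes below was not tested. In PT-S1 at 24 h the genes called were 2 with no filter, 1 with median-ratio scaling, 85 with every library counted and 100 with animals as random effects. There they were 1426 with sample weights (2 members, all genes: 12%) and 1 without the low libraries. In PT-S1 at 72 h they were 18 with every library and 10 with random effects. With weights they were 1346 (1 member, all genes: 11.3%), and without the low libraries 1. In CCD at 24 h they were 1 with no filter, 1027 with every library (6 members, all genes: 7.46%) and 485 with random effects (3 members, all genes: 3.52%). Members called there were 1 with median-ratio scaling (all genes: 1.26%) and 2 with weights (all genes: 1.48%). In CCD at 72 h the genes called were 7 with no filter, 39 with a mean of at least 5 TPM and 129 without the low library. With every library they were 150 (1 member, all genes: 1.09%), and 1 member was called under random effects (all genes: 0.886%). Between times in PT-S1 the genes called were 1 with no filter and 187 without the low libraries. Between segments at 24 h they were 25 with a pseudocount of 5, 43 with no filter, 9 with at least 5 TPM, 24 with quantile normalization and 179 without the low libraries, and at 72 h 1 with no filter and 9 without the low libraries. The synthetase median relative to all genes was -0.14 in PT-S1 at 24 h and -0.27 at 72 h with no filter, and 0.089 with weights and 0.11 without the low libraries at 72 h.

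Signs changed for the following genes, none of them called. Ddit3 here is its longer row. In PT-S1 at 24 h, Phgdh was 0.20 with median-ratio scaling and 0.16 with every library, random effects and quantile normalization; Atf4 was -0.019 on log2 of animal means, -0.12 with weights and -0.086 without the low libraries; with weights Ddit3 was -0.027 and Asns -0.20. In PT-S1 at 72 h, quantile normalization put Ddit3 at 0.14, while under median-ratio scaling Cebpg was 0.019, Psph 0.15, Phgdh 0.010, Psat1 0.15 and Ddit3 0.28. Psat1 was 0.066 with weights there, and Phgdh 0.13 and Psat1 0.17 without the low libraries. Trib3 in CCD at 72 h was 0.14 with every library, 0.094 with random effects and 0.011 with weights. Without the low libraries Yars was 0.027 between times in PT-S1, and Aars 0.10 and Vars 0.049 between segments at 72 h, where Psph was 0.011 with median-ratio scaling.

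Leaving out each animal in turn, genes called ran from 0 to 8 in PT-S1 at 24 h, 7 (without UNx animal 1) to 78 in CCD at 24 h, 8 (without UNx animal 3) to 73 in CCD at 72 h, 0 to 1 between times in CCD, 0 (without CCD sham animal 1) to 163 (without PT-S1 sham animal 3) between segments at 24 h, with 0 to 1 members, and 0 to 1 at 72 h. Relative synthetase medians ran from -0.11 to 0.0043 in PT-S1 at 24 h, -0.13 to 0.056 at 72 h, 0.090 to 0.11 in CCD at 24 h and -0.0093 to 0.072 at 72 h. Those of ATF4 genes ran from 0.18 to 0.34, -0.051 to 0.089, 0.076 to 0.26 and -0.056 to 0.11. In PT-S1 at 24 h single genes ran for Ddit3, in its longer row, from -0.083 to 0.29, Asns from -0.0091 to 0.33, Phgdh from -0.37 to 0.38, Atf4 from -0.039 to 0.062. In CCD at 24 h single genes ran for Asns from -0.045 to 0.31, Trib3 from -0.44 to 0.40. In CCD at 72 h single genes ran for Asns from -0.023 to 0.31, Chac1 from -0.58 to 0.20, Trib3 from -0.46 to 0.34.

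Same-numbered sham and UNx animals correlated between -0.37 and 0.33 in their deviations from the group means, so the numbers were not taken as pairs. With the replicate block, genes called were 80 in PT-S1 at 24 h, 0 in CCD at 24 h (limma, with 136 without the block) and 3 in CCD at 72 h. Under the block Atf4 was -0.028 in PT-S1 at 24 h and Trib3 -0.055 in CCD at 24 h.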

Other observations

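The chaperones of the endoplasmic reticulum, none of which passed limma's threshold, mostly had higher means after UNx in 3 of the 4 tables and lower means in CCD at 72 h. In PT-S1 at 24 h, 12 of 14 had higher means after UNx (all genes: 29.1%) and all 14 lay above the median of all genes, with a list median of 0.16 beside -0.19. Manf, a secreted chaperone-like protein, averaged 169.9 ± 29.9 TPM in sham and 329.6 ± 86.4 in UNx animals (± SD, 3 sham and 4 UNx animals here), a difference of 0.97 (SE 0.23, adjusted p = 0.228), and Creld2 averaged 63.8 ± 19.6 TPM in sham and 131 ± 39.1 in UNx animals, a difference of 1.05 (SE 0.27, adjusted p = 0.246). In PT-S1 at 24 h, 3 of 14 were above all sham animals in every UNx animal (all genes: 2.79%). Without the libraries of low correlation 2 of 14 were, and the share of all genes was not counted in that setting. In PT-S1 at 72 h, 9 of 14 had higher means (all genes: 17%) and all 14 lay above the median of all genes, with a list median of 0.035 beside -0.29, and without the libraries of low correlation 14 of 14 had higher means (all genes: 46%), with 0.47 beside -0.021. In CCD at 24 h, 10 of 14 had higher means (all genes: 41.8%) and 11 lay above the median of all genes, with a list median of 0.084 beside -0.038. Of the 14, 1 was apart upward (all genes: 5.55%) and 1 downward (all genes: 9.51%). Dnajb9, with the smallest p of the list in that table, was lower after UNx. It averaged 25.3 TPM in sham and 19.3 in UNx animals, a difference of -0.39 (SE 0.099, adjusted p = 0.107). In CCD at 72 h, 12 of 14 had lower means (all genes: 52.2% higher), with a median of -0.078 beside 0.010, and all 14 without the sham library of low correlation, with -0.21 beside -0.072. The lumenal chaperone Hspa5 averaged 849 ± 232 TPM in sham and 518 ± 168 in UNx animals (± SD, 4 animals in each group), a difference of -0.71 (SE 0.25, adjusted p = 0.473), and the transcription factor Xbp1 differed by -0.54 (SE 0.22, adjusted p = 0.604). These lists and the ATF4 genes were not tested against each other.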
